A study of Mus musculus with 5 samples.

Results

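In mouse CD8+ T cells, 9 genes of cytokine reception and lymphocyte signalling were examined for H3K9me3 (trimethylation of lysine 9 on histone H3). They are Stat5b, Il2ra, Il7r, Il6ra, Il10rb, Fyn, Pag1, Gimap4 and Slfn2, which are 9 of the 8915 protein-coding or lncRNA genes with a region of the authors' table within 5 kb of the gene span. Together they hold 21 of its 46409 regions. They were picked because their summed counts, a region of theirs, or their rank among T cell genes stood out when sgPrdm12 was set against sgNTC in these same libraries, so the differences below describe the choice and are given without a test.

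The sgPrdm12 cells had the genotype label Prdm12-ko, and their controls, the sgNTC cells, the label Prdm12-wt. Both were spleen CD8 T cells of OTI:Cas9 transgenic mice, which carry an ovalbumin-specific T cell receptor and Cas9, and both were electroporated with Cas9 ribonucleoprotein (300 pmol each of protein and guide) whose guide was directed at Prdm12 or at no target, then left for 72 hours. The labels name no cloning step, so the cells are taken as a mixed population, and the share of edited cells and the age of the mice are not given in the sources used here. H3K9me3 was profiled by CUT&Tag, in which an antibody directs a transposase to chromatin with the mark, in 2 libraries per group, replicate 1 in batch 1 and replicate 2 in batch 2. An IgG library exists and was not used here. No label ties a library to an animal, so the spread between libraries may be technical.

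H3K9me3 is laid down by histone methyltransferases and bound by heterochromatin protein 1, and it is known for silent chromatin, above all at repeats. Cytokine receptors on T cells signal through Janus kinases to STAT transcription factors, which enter the nucleus and act on target genes. Interleukin-7 sustains resting T cells through this route, and interleukin-2 drives their growth after activation. Next to it, the T cell receptor signals through Src family kinases such as Lck and Fyn, which are held in check by the kinase Csk.

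Depth differed between groups and bears on each value below. Library totals over all regions were 2353807 and 1396201 in sgPrdm12, against 843673 and 1060646 in sgNTC, with medians per region of 32 and 17 counts in sgPrdm12, against 7 and 9 counts in sgNTC. Read counts of this mark do not show whether Prdm12 was cut, so the guide labels are not checked by them. Levels are therefore CPM, counts per 1000000 of a library size adjusted by TMM (trimmed mean of M values), a scaling that sets the typical region equal in both groups. On it the median region had 10.7 and 10.5 CPM in sgPrdm12, against 9.62 and 10.8 CPM in sgNTC. A count of 3 was worth 4.12 and 3.61 CPM in sgNTC-1 and sgNTC-2. In bulk chromatin, more cells with the mark and more mark per cell cannot be told apart.

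For the 7 genes with a start in the promoter table, all but Il10rb and Pag1, 2 regions lay less than 1 kb from a start, one on the promoter of Fyn and one beside that of Il6ra. The promoter windows of these genes, 250 bases before to 50 after a listed start, are shown because they are the places where a region at a start can be set beside regions in the body of the same gene. Sequences are from RefSeq, build GRCm38.p6, on the strand of the gene. Capitals mark matches on either strand to CCAAT, to the GC box GGGCGG, to the STAT motif TTCNNNGAA or to the GATA motif GATAA. The window of Fyn is chr10:39369549-39369848 on the plus strand, and that of Il6ra is chr3:89913147-89913446 on the minus strand.
Fyn promoter: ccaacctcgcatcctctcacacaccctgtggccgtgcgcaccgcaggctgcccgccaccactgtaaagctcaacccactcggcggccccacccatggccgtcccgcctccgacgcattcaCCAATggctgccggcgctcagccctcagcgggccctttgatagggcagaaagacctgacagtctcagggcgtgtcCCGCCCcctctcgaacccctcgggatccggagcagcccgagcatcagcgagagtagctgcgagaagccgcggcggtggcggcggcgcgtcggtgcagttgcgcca
Il6ra promoter: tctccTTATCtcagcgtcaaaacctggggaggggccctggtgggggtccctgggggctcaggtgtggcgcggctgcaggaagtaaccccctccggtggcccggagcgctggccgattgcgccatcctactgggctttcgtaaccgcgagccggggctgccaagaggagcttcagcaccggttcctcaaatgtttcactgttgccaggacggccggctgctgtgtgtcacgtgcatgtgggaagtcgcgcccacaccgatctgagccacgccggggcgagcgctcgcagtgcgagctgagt

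The Fyn window has 69.0% G and C and 31 CG pairs, against medians of 52.7% and 7 over 32851 such windows. It holds 1 CCAAT and 1 GC box, found in 37.4% and 35.7% of all windows, and neither of the other motifs. The Il6ra window has 66.0% G and C and 25 CG pairs, and it holds 1 GATA match, a motif found in 25.4% of windows. The STAT motif is in 8.30% of windows, and among the 7 of the 9 genes with an entry it is in that of Il7r alone. A match describes the letters and is not a binding site. The region at Fyn covers 227 of the 300 bases of its window, and the one at Il6ra lies 129 bp inside the gene from its window.

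In position, the regions fall into 2 kinds of gene. Stat5b, Il6ra, Fyn and Pag1 hold 13 regions inside their spans. Il2ra, Il7r, Il10rb, Gimap4 and Slfn2 have none there and are represented only by 8 regions in the flanks. A region that overlaps a span in any part counts as inside it, and the Fyn promoter region begins before its span. Of all 8915 genes with a region, 30.2% had none inside the span. Il2ra and Slfn2 rest on 1 region each, as did 61.4% of all these genes. Whether a region in a span is exonic or intronic is not annotated in the gene table used.

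**Figure D1:**
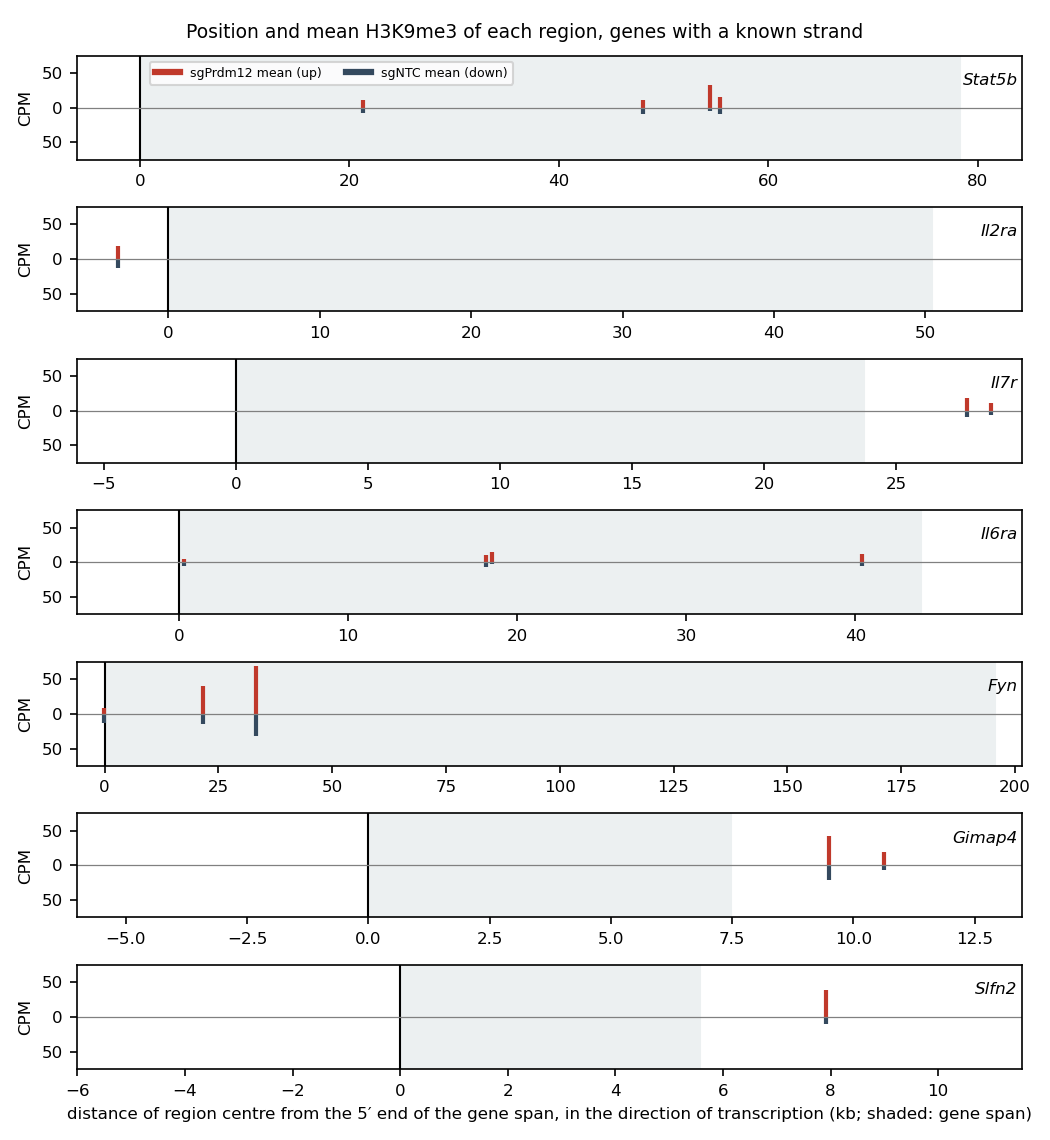
Mean H3K9me3 of each region in CPM (sgPrdm12 upward, sgNTC downward, n = 2 each) against the distance of its centre from the 5′ end of the gene span in kb, for the 7 genes with a known strand; the span is shaded. The regions of Il2ra, Il7r, Gimap4 and Slfn2 lie outside the shaded spans. At the starts of Fyn and Il6ra the downward bar is the longer, by little at Il6ra (4.58 CPM in sgPrdm12, 4.81 CPM in sgNTC).

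The regions also sat closer together than regions in general. The genes were picked partly on counts, and whether that choice favours close or wide regions was not tested. Another region lay within 1000 bp for 12 of the 21, or 57.1%, against 9.99% of all regions. These 12 form pairs in 6 genes, with gaps of 75 bp in Il6ra, 270 bp beside Il10rb, 530 bp beside Il7r, 586 bp beside Gimap4, 616 bp in Stat5b and 875 bp in Pag1. Regions so close are not separate observations of a gene. The regions were 219 to 1189 bp wide with a median of 360 bp, against 282 bp for all regions. A width of 700 bp or more, a limit chosen after the widths were seen, was found in 5 of them, in Fyn (2 regions) and beside Il10rb, Gimap4 and Slfn2, and in 3.22% of all regions. Within 1 Mb around each gene lay 5 (Pag1) to 17 (Il10rb) regions, with a median of 12, against a median of 16 for all genes with a region.

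Summed per gene, all 9 genes had more H3K9me3 in both sgPrdm12 libraries than in either sgNTC library. That ordering was seen in 21.6% of all genes with a region. The log2 fold changes, sgPrdm12 over sgNTC, ran from 0.56 for Il2ra to 1.94 for Slfn2 (1.00 without sgNTC-1, which had 0 counts there) with a median of 1.15, while the median over the 7802 genes tested was -0.03. The edgeR test over all genes was passed by 6 of the 9, against 1.19% of genes tested that passed as higher. As the genes were picked from this contrast, nothing is read from these counts, and with any 1 library left out 0 to 2 of the 9 passed. All 9 genes and all 21 regions passed the filter on low counts, as did 7802 of all 8915 genes and 37390 of all 46409 regions. The filter asks for enough counts in 2 libraries, so the sgPrdm12 libraries alone can meet it.

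**Figure D2:**
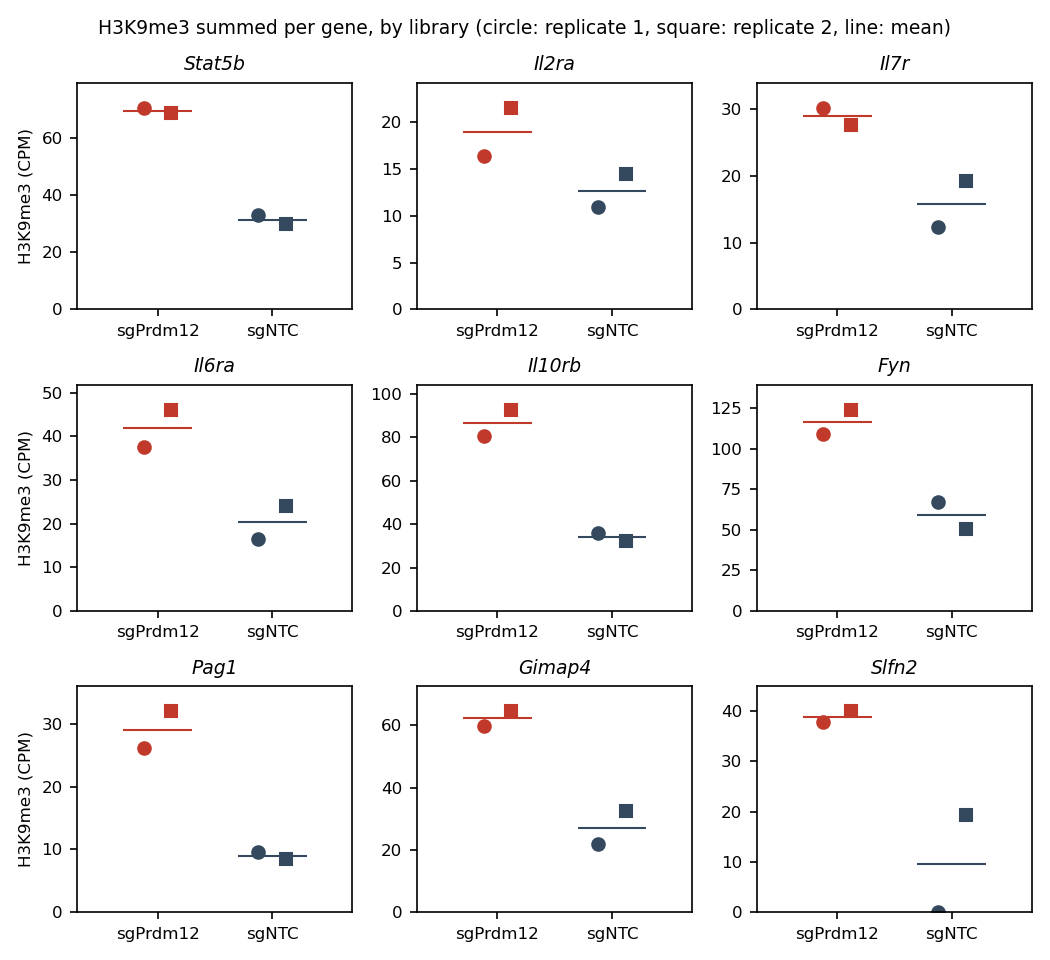
H3K9me3 in CPM summed over the regions of each gene, in the sgPrdm12 libraries (left) and the sgNTC libraries (right), with the mean of each group as a line; each panel has its own axis from 0. Both sgPrdm12 libraries lie above both sgNTC libraries in every panel, and the sgNTC libraries of Slfn2 are far apart, with 0 and 19.2 CPM.

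Among the receptors, the fitted difference over all 4 libraries was largest at Il10rb and smallest at Il2ra. Il10rb encodes a chain shared by the receptors for interleukin-10, interleukin-22 and the lambda interferons. Its 2 regions lie 3.0 and 3.8 kb beyond the high-coordinate end of the span (chromosome 16, 91406157 to 91425834). The nearer one, at 91428817 to 91429368, held 94 and 65 counts in sgPrdm12, against 10 and 17 in sgNTC. The farther one, at 91429638 to 91430531, held 147 and 86 counts in sgPrdm12, against 16 and 10 in sgNTC. The groups did not overlap at either, with log2 fold changes of 1.04 (SE 0.43) and 1.60 (SE 0.41), whose difference was not tested. The sum was 86.7 ± 8.61 CPM in sgPrdm12 and 34.1 ± 2.30 CPM in sgNTC (SD, n = 2 each). Its log2 fold change was 1.35 (SE 0.29), with 1.17 in batch 1 and 1.52 in batch 2. No other gene of the table lies within 5 kb of these regions.

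Il6ra encodes the alpha chain that binds interleukin-6 and is known to be high on resting T cells. Its span (chromosome 3, 89869324 to 89913196, minus strand) held 4 regions. The pair in the middle of the gene had 29 and 32 counts in sgPrdm12, against 0 and 5 in sgNTC, at 89894549 to 89894855. The other region of the pair, at 89894930 to 89895176, had 37 and 15 counts in sgPrdm12, against 4 and 7 in sgNTC. Towards the 3′ end, at 89872585 to 89872979, the counts were 26 and 24 in sgPrdm12, against 1 and 8 in sgNTC, and on the CPM scale sgPrdm12-1 did not exceed sgNTC-2 there. That region also overlaps the lncRNA gene Gm46811, which lies 4306 and 4687 bp from the regions of the middle pair. By the 5 kb rule, the pair and the region towards the 3′ end therefore count for Gm46811 as well.

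The region at the start of Il6ra, at 89912799 to 89913018, lies beside the promoter printed above and had few counts. It had 20 and 4 counts in sgPrdm12, against 7 and 0 in sgNTC, or 4.58 ± 2.99 CPM in sgPrdm12 and 4.81 ± 6.80 CPM in sgNTC (SD, n = 2 each). The libraries of a group thus differed more than the groups, and the fitted log2 fold change was 0.03 (SE 1.31), although the mean was lower in sgPrdm12. Leaving out 1 library moved it between -0.98 and 6.13, the upper value against the library at 0 and so no bound. The whole gene summed to 112 and 75 counts in sgPrdm12, against 12 and 20 in sgNTC. Its log2 fold change was 1.02 (SE 0.38), with 1.18 in batch 1 and 0.94 in batch 2.

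Il7r encodes the interleukin-7 receptor alpha chain, on which survival of resting T cells depends. Both its regions lie downstream of the 3′ end, by 3.7 and 4.6 kb (chromosome 15, span 9506159 to 9529941, minus strand). The region at 9502069 to 9502423 had 48 and 33 counts in sgPrdm12, against 7 and 8 in sgNTC, and the groups were apart. The one at 9501184 to 9501539 had 42 and 12 counts in sgPrdm12, against 2 and 8 in sgNTC, and the groups overlapped, with a log2 ratio of 2.35 in batch 1 and -0.38 in batch 2. It is the region farthest from its gene, and the nearest one left out, 6.2 kb from Il7r, held 22 and 27 counts in sgPrdm12, against 0 and 4 in sgNTC. The sum was 28.9 ± 1.74 CPM in sgPrdm12 and 15.8 ± 4.86 CPM in sgNTC (SD, n = 2 each), a log2 fold change of 0.86 (SE 0.44).

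Il2ra encodes the inducible alpha chain of the interleukin-2 receptor, CD25. It rests on 1 region, 3.1 kb upstream of the start (chromosome 2, 11639302 to 11639667, with the span at 11642792 to 11693194 on the plus strand). The region held 49 and 35 counts in sgPrdm12, against 8 and 12 in sgNTC, or 16.4 and 21.5 CPM in sgPrdm12, against 11.0 and 14.4 CPM in sgNTC. The gap between the nearest libraries of the 2 groups was smaller than the gap within either group. The log2 fold change of 0.56 (SE 0.54) was the smallest of the 9 and about the size of its error.

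Stat5b encodes a transcription factor that acts downstream of the interleukin-2 and interleukin-7 receptors. Its span (chromosome 11, 100780731 to 100859004, minus strand) held 4 regions, all away from the starts in the promoter table. A single region of 413 bp carried most of the difference. At 100804384 to 100804797 it had 100 and 52 counts in sgPrdm12, against 4 and 3 in sgNTC, or 32.7 ± 1.06 CPM in sgPrdm12 and 4.55 ± 1.33 CPM in sgNTC (SD, n = 2 each). It held 47.1% of the gene's counts in sgPrdm12, and its log2 fold change of 2.84 (SE 0.57) stood beside 2.82 for a Pag1 region with 0 counts in sgNTC-1. Of these, the Pag1 value was the higher with DESeq2's Wald test, limma-voom and the replicate block, and without sgPrdm12-1 or without sgNTC-2.

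The other Stat5b regions differed less. The neighbour at 100803540 to 100803768 had 44 and 27 counts in sgPrdm12, against 5 and 11 in sgNTC. Its log2 fold change was 0.61 (SE 0.59), with groups that were just apart on the CPM scale. The regions at 100810833 to 100811193 and 100837549 to 100837790 had log2 fold changes of 0.28 (SE 0.69) and 0.43 (SE 0.73), the groups overlapping at both. Without the leading region, Stat5b had 37.1 and 36.9 CPM in sgPrdm12, against 27.5 and 26.5 CPM in sgNTC, a log2 ratio of the means of 0.46. With all 4 regions the log2 fold change was 1.15 (SE 0.30), with 1.10 in batch 1 and 1.20 in batch 2, so the value for the gene rests largely on that 1 region.

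Fyn encodes a Src family kinase that acts at the T cell receptor. Its span (chromosome 10, 39369743 to 39565381, plus strand) was overlapped by 3 regions, 1 on the promoter printed above and 2 in the body. In the body, the region at 39390694 to 39391859 had 40.8 and 38.7 CPM in sgPrdm12, against 13.7 and 15.6 CPM (10 and 13 counts) in sgNTC. The region at 39402513 to 39403702 had 171 and 130 counts in sgPrdm12, against 29 and 19 in sgNTC. The groups were apart at both, with log2 fold changes of 1.43 (SE 0.43) and 1.13 (SE 0.36), and both are wide, since only 0.306% and 0.280% of all regions were as wide or wider.

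On the Fyn promoter, at 39369571 to 39369797, the counts were 33 and 9 in sgPrdm12, against 10 and 10 in sgNTC. In CPM this was 8.29 ± 3.90 in sgPrdm12 and 12.9 ± 1.21 in sgNTC (SD, n = 2 each), so both sgPrdm12 libraries lay below both sgNTC libraries. The log2 fold change of -0.59 (SE 0.66) was the only fitted value below 0 among the 21 regions and smaller than its error. It was -1.20 without sgPrdm12-1 and -0.22 without sgPrdm12-2. With the authors' constants it was 0.43, on a scale where the median of all regions was 1.00. The region also overlaps the lncRNA gene Gm31616, and which gene it belongs to cannot be told apart. Summed, Fyn had 117 ± 10.7 CPM in sgPrdm12 and 58.9 ± 11.9 CPM in sgNTC (SD, n = 2 each), a log2 fold change of 0.99 (SE 0.25), with 0.70 in batch 1 and 1.30 in batch 2.

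Over the whole table, regions at starts had lower values than other regions. Over the 578 tested regions that overlap a promoter window, the median log2 fold change was -0.38 and 30.3% were positive, while over the other 36812 the median was -0.01 and 49.6% were positive. Whether the regions at starts differ from those in the bodies of Fyn and Il6ra was not tested, and at Il6ra the standard errors overlap. A promoter window was overlapped in 2.59% of the 27025 genes with an entry and in 1 of the 7 genes with one here. The 27025 include genes with no region nearby, whereas the 7 all have one, so these shares cannot be compared.

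**Figure D3:**
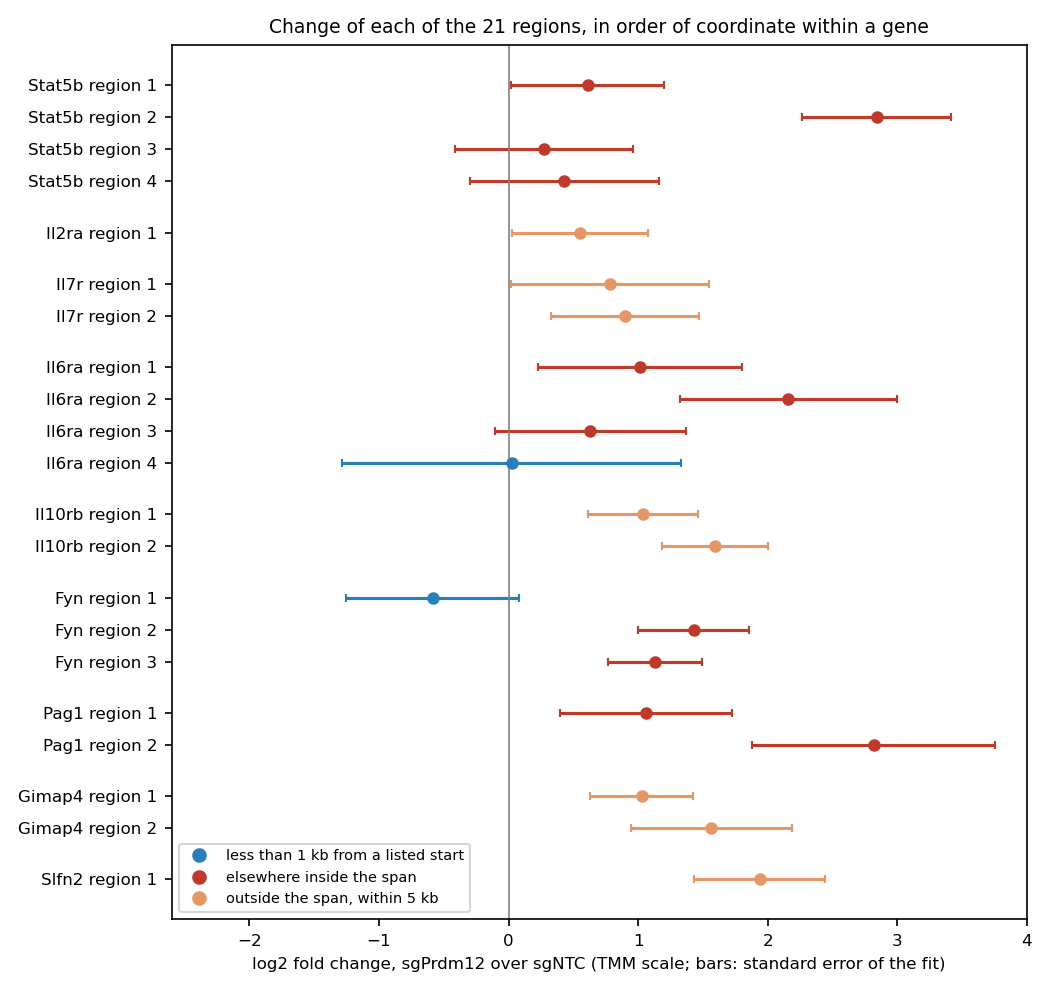
Log2 fold change, sgPrdm12 over sgNTC, of each of the 21 regions with the standard error of the fit over all regions, numbered by coordinate within a gene and coloured by position (the starts of Il10rb and Pag1 were not looked up). The 2 regions less than 1 kb from a listed start are Fyn region 1 at -0.59 and Il6ra region 4 at 0.03; the place of Il6ra region 4 changes with the fit, as it was 0.40 with the replicate block and 1.28 with limma-voom.

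Pag1 encodes a membrane adaptor that is known to bring Csk to the membrane, where Csk inhibits Src family kinases such as Fyn. Its span (chromosome 3, 9687479 to 9833684) held a pair of regions 33.5% and 34.4% of the way along by coordinate. The region at 9736289 to 9736757 had 37 and 29 counts in sgPrdm12, against 7 and 4 in sgNTC. The region at 9737632 to 9737987 had 41 and 23 counts in sgPrdm12, against 0 and 3 in sgNTC. The groups were apart at both. The gene summed to 29.0 ± 4.15 CPM in sgPrdm12 and 9.02 ± 0.847 CPM in sgNTC (SD, n = 2 each), a log2 fold change of 1.68 (SE 0.51) that rests on 7 counts in each sgNTC library.

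Gimap4 encodes a GTPase of the immunity-associated family. Both its regions lie downstream of the 3′ end of the short span (chromosome 6, 48684578 to 48692062, plus strand), by 1.7 and 3.0 kb. At 48693716 to 48694434 the counts were 130 and 69 in sgPrdm12, against 12 and 21 in sgNTC. At 48695020 to 48695380 they were 49 and 36 in sgPrdm12, against 4 and 6 in sgNTC. The groups were apart at both, and the sum was 62.2 ± 3.29 CPM in sgPrdm12 and 27.2 ± 7.42 CPM in sgNTC (SD, n = 2 each). The log2 fold change was 1.18 (SE 0.32), with 1.45 in batch 1 and 0.99 in batch 2.

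Slfn2 encodes a Schlafen family protein that is known in mice to keep T cells quiescent. It rests on 1 region of 1039 bp, 1.8 kb downstream of its 3′ end (chromosome 11, 83072515 to 83073554, with the span at 83065112 to 83070678 on the plus strand). The region held 113 and 65 counts in sgPrdm12, against 0 and 16 in sgNTC. The sgPrdm12 libraries were close, at 37.8 and 40.0 CPM, whereas the sgNTC libraries were not, at 0 and 19.2 CPM. Against a floor of 3 counts in sgNTC-1 the log2 ratio in batch 1 was at least 3.20, and in batch 2 it was 1.05. The fitted log2 fold change was 1.94 (SE 0.46), and without sgNTC-1 it was 1.00, so that library decides the size. The lncRNA gene Gm20234 takes the same region and the same counts.

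Per covered length, the order of the genes differed from that of their sums. Il10rb stood at 60.1 CPM per kb of region in sgPrdm12, against 23.6 in sgNTC, and Pag1 at 35.3 CPM per kb in sgPrdm12, against 11.0 in sgNTC. The medians over the 21 regions were 45.4 and 39.8 CPM per kb in sgPrdm12, against 23.0 and 20.0 in sgNTC. Over all regions they were 36.6 and 34.5 CPM per kb in sgPrdm12, against 33.1 and 34.1 in sgNTC. The regions thus had a median above that of all regions in sgPrdm12 and below it in sgNTC. Of the 21 regions, 13 held 10 counts or fewer in both sgNTC libraries and 4 held 0 in one of them. Non-overlapping groups with sgPrdm12 above were found at 15 of the 21, against 20.0% of all regions.

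The size of every difference depended on how the libraries were scaled. With total counts the log2 fold changes ran from 1.12 for Il2ra to 2.52 for Slfn2, and with the authors' own constants from 1.56 to 2.95. The median over all genes was 0.54 and 0.98 on these scales, so relative to it the genes stayed close to their TMM values. All 9 values were positive under each of 4 scalings.

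**Figure D4:**
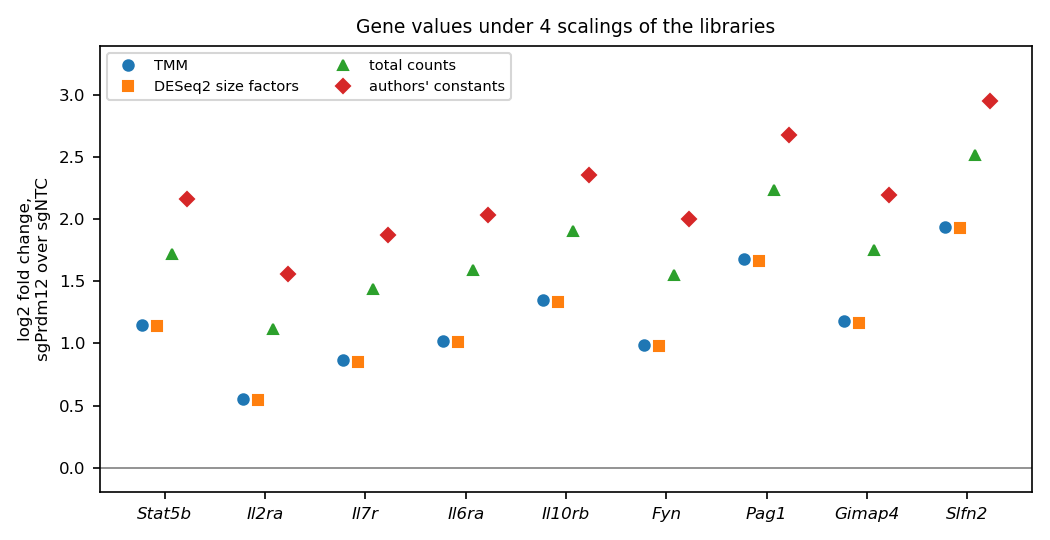
Log2 fold change, sgPrdm12 over sgNTC, of each gene under 4 scalings of the libraries. The points of each gene rise together from TMM and DESeq2 size factors to total counts and the authors' constants, from 0.56 to 1.56 for Il2ra, and none is below 0.

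Among other genes of the same pathways no gene passed the test. Lists of 179 genes, written with earlier results of these data known, held 40 genes with a region and 33 that were tested. None of the 33 passed as higher or lower (edgeR, adjusted p), against 1.19% higher and 1.72% lower of all genes tested. Unadjusted, 3 had p under 0.05 in edgeR, 1 in DESeq2 and 4 in limma-voom. Of all 7802 genes tested, 948, 453 and 793 did in these fits. Their median log2 fold change was -0.04, near the -0.03 of all genes tested, and 15 were positive. With total counts and the authors' constants 4 and 16 passed as higher, scales on which 1180 and 3474 of all genes did. The described genes, picked because they stood out in this contrast, were left out of the lists. At shares of 1.19% and 1.72%, few or no passes are expected among 33 genes. That none of the 33 passed therefore cannot show whether the difference is particular to the described genes.

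Of 54 other cytokine receptor genes, 15 were tested, with log2 fold changes from -0.57 to 0.94 and a median of -0.05. Those with the most counts were Il3ra, for the interleukin-3 receptor, Ifnlr1, for the lambda interferon receptor that pairs with the Il10rb product, and Lepr, the leptin receptor. Their values were -0.01, -0.04 and 0.00. Ifnlr1 had 177 and 99 counts in sgPrdm12, against 52 and 44 in sgNTC. Among 5 tested cytokine genes, Lif, Il10 and Il20 stood at 0.46, -0.06 and 0.16. Il22, for interleukin-22, had 10.4 and 7.38 CPM in sgPrdm12, against 22.0 and 21.7 CPM in sgNTC. Both sgPrdm12 libraries lay below both sgNTC libraries, and the log2 fold change of -1.26 (SE 0.57) did not pass (edgeR, adjusted p = 0.317).

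Of the Janus kinases, STATs and their regulators 3 of 29 were tested. Stat3, which interleukin-6 activates, stood at -0.50 with 76 and 72 counts in sgPrdm12, against 24 and 52 in sgNTC, and of the 140 listed genes with a promoter entry it alone had a window overlapped by a region. Socs2, a feedback inhibitor induced by STAT5, and Sh2b2, an adaptor of receptor kinases, stood at 0.19 and 0.28. No region lay within 5 kb of Stat5a, the close relative and neighbour of Stat5b.

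Of 56 genes of Src family kinases and T cell receptor signalling 9 were tested, with a median of 0.22. Grap2, an adaptor that links LAT to SLP-76, had 120 and 88 counts in sgPrdm12, against 22 and 19 in sgNTC, a log2 fold change of 0.82 (SE 0.35, edgeR adjusted p = 0.244). Ubash3a, a negative regulator of T cell receptor signalling, stood at 0.74. The groups were apart at both, with sgPrdm12 higher, yet neither passed.

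In the GIMAP family 1 of 7 other genes had regions, Gimap5, which is required for lymphocyte survival in mice. It had 103 and 54 counts in sgPrdm12, against 8 and 13 in sgNTC, or 34.5 and 33.2 CPM in sgPrdm12, against 11.0 and 15.6 CPM in sgNTC. Its log2 fold change of 1.34 (SE 0.45) was of the size seen at Gimap4 and did not pass (edgeR, adjusted p = 0.0749). None of the 9 other Schlafen genes listed had a region.

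**Figure D5:**
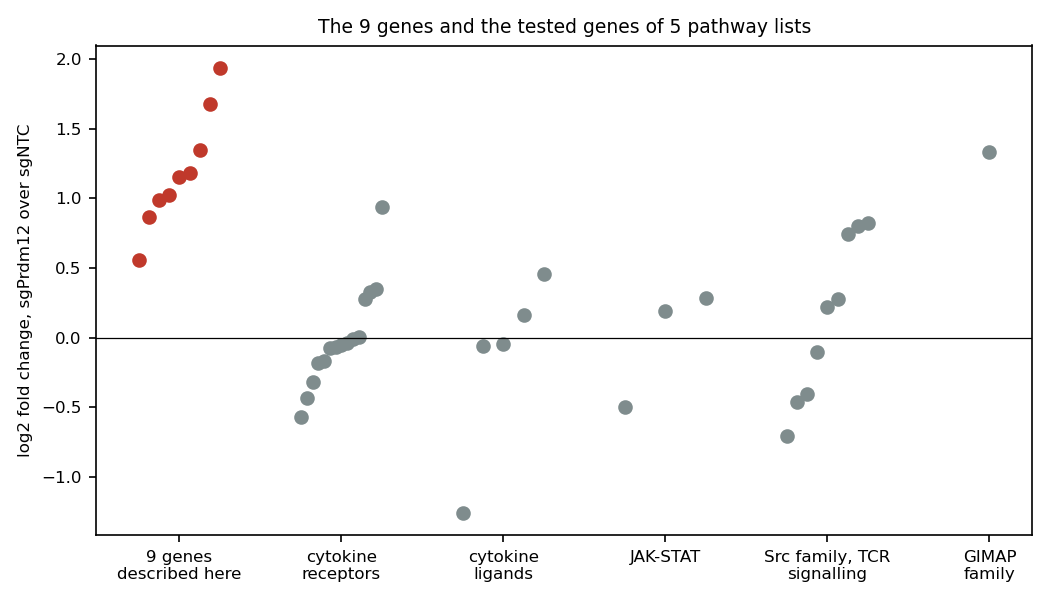
Log2 fold change, sgPrdm12 over sgNTC, of the 9 genes (red) and of the 33 tested genes of 5 pathway lists (grey); points are sorted by value and spread sideways only to be seen. The 9 genes lie between 0.56 and 1.94, as they were picked to, and the lists spread around 0 from -1.26 for Il22 to 1.34 for Gimap5.

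Genes whose 4 values were most like the median of the 9, by the Euclidean distance between centred log2 CPM values over the 4 libraries, were Lrig3, Gm40005 and Fam241a at 0.0859, 0.0859 and 0.118. The median distance of all genes tested was 1.33, and the 9 genes themselves lay between 0.166 and 3.17. The mark does not report which genes a cell expresses, and the cell type label could be checked in little. Of 9 CD8 T cell markers 1 had a region and of 7 B cell markers 0, and that CD8 marker, Cd2, had 14.7 and 8.61 CPM in sgPrdm12, against 20.6 and 4.81 CPM in sgNTC. Of 5 natural killer markers 1 did, Klrb1c, with 105 and 103 CPM in sgPrdm12, against 42.6 and 80.6 CPM in sgNTC. Of 4 CD4 T cell, 7 myeloid and 5 erythroid markers 1 each had a region. The CD4 list summed to 7.36 and 17.2 CPM in sgPrdm12, against 4.12 and 9.62 CPM in sgNTC. For the myeloid list the sums were 10.7 and 6.76 CPM in sgPrdm12, against 16.5 and 10.8 CPM in sgNTC. For the erythroid list they were 7.36 and 3.69 CPM in sgPrdm12, against 9.62 and 9.62 CPM in sgNTC. In the myeloid and erythroid lists both sgPrdm12 libraries thus lay below both sgNTC libraries. The part of these markers in the results was not tested.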

How the data were processed

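The authors' deposited table lists regions with raw read counts, which are whole numbers, and a signal scaled by the authors, for each library. The deposited signal equals the count times a fixed factor, 0.638 and 1.12 for sgPrdm12 and 1.29 and 1.09 for sgNTC; how it was derived is not stated by the labels or headers. Trimmomatic, Bowtie2, MACS2 and DiffBind, with no versions, and the build GRCm39 are named per the submitters' processing notes. Coordinates were nevertheless read as GRCm38: 2.27% of RefSeq GRCm38 promoter windows overlapped a region, against 0.804% to 0.977% with the windows shifted by 20000 to 100000 bp, and 2 regions overlapped Rn18s-rs5. Whether starts count from 0 or 1 is unknown.

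Counts were summed over the regions within 5 kb of a RefSeq protein-coding or lncRNA span, so neighbours can share regions. Genes and regions were fitted with edgeR 4.0.16 (quasi-likelihood, TMM, filterByExpr, group only, two-sided, Benjamini-Hochberg adjusted p under 0.05; limma 3.58.1, DESeq2 1.42.0, R 4.3.3), with library sizes taken over all regions. SE was taken as the size of the change over the root of its quasi-F. Batch ratios use CPM without a prior count, and likeness adds a prior of 2 counts. The fits were tested on simulated data, where changes were placed only on features expected above 10 counts in the smallest library. Changes at lower expected counts were not simulated. The labels give each replicate number its batch, so numbers pair the libraries. The correlation of replicate differences between groups was -0.0115 over regions. The genes, lists and limits were chosen with earlier results of these data known. Named beside the 9 genes were, in each list, genes that passed and the 3 with most counts, neighbours sharing a region and the 3 most alike; Il22 and Klrb1c were named after their values were seen. A gene that this rule names is not reported here. Alternatives were 3 scalings, a replicate block, leaving out each library, no filter, spans without flanks, DESeq2 and limma-voom.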

Additional observations from a re-analysis of the deposited data

How the results depend on the processing

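Counts of genes that passed moved with most choices, and 6 of 9 described genes passing became 0 to 2 with any 1 library left out, 1 with DESeq2's Wald test, 2 with limma-voom, 8 with total counts and 9 by the authors' constants. Genes higher in sgPrdm12, 93 by edgeR, were 1180 with total counts, 3474 with the authors' constants, 12 with DESeq2's Wald test, 30 with limma-voom, 59 with spans without flanks and 7 to 46 with a library left out. Genes lower, 134, were 70, 32, 61, 120 and 81 under these, and 33 to 105 with a library left out. With the replicate block they were 90 and 137, and the 6 described genes that passed also passed with the block. Pathway genes higher were 0, but 4 with total counts and 16 by the authors' constants, and 0 with the block. Pathway genes lower were 0 under each alternative run. Where a library was left out, the lone one of its group was assumed to vary like the other group.

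The log2 fold changes of the 9 genes kept their sign under each alternative that gave a value. Spans without flanks gave 1.16 for Stat5b, 1.03 for Il6ra, 1.00 for Fyn and 1.69 for Pag1, and no value for the other 5. Single regions turned in 8 cases. Stat5b region 3 was -0.13 without sgNTC-2 (range with a library left out -0.13 to 0.91) and Stat5b region 4 was -0.063 without sgPrdm12-1 (range -0.063 to 0.75). Il6ra region 4, at its start, was -0.017 with DESeq2 size factors, -0.033 with no filter, -0.89 without sgPrdm12-1, -0.98 without sgNTC-2 and -0.072 with DESeq2's Wald test, and its range with a library left out was -0.98 to 6.13, the last against a library at 0 and so no bound. Fyn region 1, on its promoter, was 0.43 with the authors' constants, a scale on which all regions shift up. The cause of the other turns was not tested. With 7 and 9 counts in the median sgNTC region, depth there limits each value.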
